A study of Mus musculus with 6 samples.

Results

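The 39 genes described here encode the machinery that brings proteins into the endoplasmic reticulum (ER), folds them there, senses their misfolding and removes those that fail. They were taken by symbol from a table of 16123 genes comparing the liver of *Txndc5*-deficient mice (KO) with that of wild type mice (WT). The protein disulfide isomerases, the family to which TXNDC5 belongs, were not included as a group, though the disulfide reductase *Dnajc10* was. All 39 were found in the table, and all 39 had a mean of the WT and KO values of at least 10, the limit used for every count over genes (11367 genes). The RNA came from whole liver of male mice that were 2 months old when the experiment began, received a purified chow diet for 4 weeks and were fasted for 16 h. The labels name the strain C57BL/6Rj for WT and C57BL/6JRj-Txndc5<em2Mdnp>/Ciba for KO. KO mice carried a deletion of exon 3 of *Txndc5* in every cell, bred from a single founder made with CRISPR-Cas9. The study states that this founder was bred to C57BL/6J and that the mice came from crosses of heterozygotes. Each genotype was sequenced as 3 libraries (RNAseq), each from RNA pooled over several mice, so that no value belongs to 1 mouse. The methods give 3 mice per pool, but another passage gives totals of animals that do not match this number.

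Proteins destined for secretion enter the ER through the SEC61 channel while they are being made, and chaperones such as BiP (*Hspa5*) and the lectins calnexin and calreticulin hold them until they are folded. When unfolded proteins build up, the membrane sensors IRE1 (*Ern1*), PERK (*Eif2ak3*) and ATF6 start the unfolded protein response (UPR), in which the transcription factors XBP1 and ATF6 bind ER stress elements in promoters and raise the transcription of chaperones and degradation factors. ER-associated degradation (ERAD) extracts proteins that cannot be folded and hands them to the proteasome. Hepatocytes secrete most plasma proteins and are rich in all of these components.

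The libraries held 44040160 to 46050030 clean reads, of which 91.6% to 93.7% were mapped, and ribosomal RNA made up 0.26% to 0.69% of the reads. *Txndc5*, the deleted gene, was 29.7-fold lower in KO, at 90.8 against 2697 in WT. The table holds 1 value per genotype and gene, on the scale of reads divided by a size factor for library depth, and these values carry no error, so that the ratios below are descriptions without a test unless libraries are named. The log2 ratio of KO over WT is that of these 2 values and is already shrunken toward 0. In 359 genes with a sum of 200 to 400 normalized reads and a log2 ratio of recovered reads of at least 0.5 in size, the deposited log2 ratio had a median size of 0.765 times that of the recovered reads. The 8 hepatocyte markers were all present, the lowest value being that of *Apob* at 35805 in WT and 24961 in KO, and their median log2 ratio was -0.18 with 6 of 8 below 0 (from -0.52 in *Apob* to 0.20 in *Cyp2e1*). Plasma cells and pancreatic acinar cells are also rich in ER folding proteins. Of 6 plasma cell markers 5 were in the table, with *Jchain* at 3.57 in WT and 5.10 in KO, *Mzb1* at 4.30 and 4.71, *Pou2af1* at 4.77 and 5.91, *Cd79a* at 37.4 and 26.8, and *Sdc1*, which hepatocytes also express, at 6275 and 5965. Of 5 acinar markers 4 were in the table, with *Cela1* at 88.1 and 93.4 and the other 3 between 0.521 and 5.60. All 5 red cell markers were higher in KO, with summed values of 118783 and 180301. The median was 0.28 over 6 Kupffer cell markers (-0.05 to 0.62) and -0.44 over 5 stellate cell markers (-0.98 to 0.76). The part of these cell types in the values of the 39 genes was not tested, and in bulk RNA fewer cells of a type and less RNA per cell cannot be told apart.

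Some of the promoters of these genes held the element through which the UPR is known to act. The genes were chosen for their place in that pathway, so a higher share than among all symbols is no independent result. The ER stress element (ERSE) is CCAAT and CCACG separated by 9 bases, a site known to be bound by NF-Y at the first box and by ATF6 at the second. In the window of the RefSeq promoter table of the build GRCm38.p6, from 250 bases before to 50 after the start, 31 of the 39 genes had an entry, and 8 of these 31 (25.8%) held an exact ERSE on either strand, against 0.137% of 27025 gene symbols in the table. Those 8 were *Calr*, *Hspa5*, *Hsp90b1*, *Syvn1*, *Canx*, *Dnajc3*, *Creld2* and *Derl3*, and *Hsp90b1* held 2 elements. The elements are given on the strand that reads CCAAT first, 5′ to 3′, with both boxes in capitals, so that the variation of the spacer between genes can be seen.
Calr: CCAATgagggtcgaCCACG
Hspa5: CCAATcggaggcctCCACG
Hsp90b1, first: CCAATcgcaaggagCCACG
Hsp90b1, second: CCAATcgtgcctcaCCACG
Syvn1: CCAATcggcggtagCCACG
Canx: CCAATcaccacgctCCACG
Dnajc3: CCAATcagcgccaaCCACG
Creld2: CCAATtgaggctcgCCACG
Derl3: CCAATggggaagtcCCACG
All 9 elements lay before the start of transcription, with the nearest box 26 bases away in *Syvn1* and the farthest 212 in *Hsp90b1*. *Herpud1* and *Dnajb11* held the shorter ERSE-II, ATTGG and CCACG separated by 1 base, which was found in 2 of 31 genes against 0.0444% of symbols. The 2 matches differ in the single spacer base.
Herpud1: ATTGGgCCACG
Dnajb11: ATTGGcCCACG
The UPR element TGACGTGG was in 0 of 31 promoters, against 0.714% of symbols. The box CCACG alone, which is part of both ERSE and ERSE-II, was in 25 of 31 promoters against 35.5% of symbols, and CCAAT, which is part of ERSE, in 22 of 31 against 41.1%. *Hyou1*, *Ssr2*, *Manf*, *Atf6*, *Derl1*, *Sec61a1*, *Erlec1* and *Lman1* had no entry. A match is a description of the letters and not of binding.

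For the 3 genes with an ERSE and the highest WT values, the 250 bases before the start are shown on the strand of the gene, with the boxes of each ERSE in capitals. They are the promoters of calreticulin, BiP and GRP94, the lumenal chaperones with the most reads among these genes. On the strand of *Calr* the element reads in reverse, as CGTGG followed by ATTGG.
Calr, chr8:84846932-84847181, minus strand: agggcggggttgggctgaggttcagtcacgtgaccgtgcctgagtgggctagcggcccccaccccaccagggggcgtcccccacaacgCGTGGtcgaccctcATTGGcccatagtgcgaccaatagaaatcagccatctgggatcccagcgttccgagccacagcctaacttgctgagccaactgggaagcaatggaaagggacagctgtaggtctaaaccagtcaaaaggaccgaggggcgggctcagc
Hspa5, chr2:34771840-34772089, plus strand: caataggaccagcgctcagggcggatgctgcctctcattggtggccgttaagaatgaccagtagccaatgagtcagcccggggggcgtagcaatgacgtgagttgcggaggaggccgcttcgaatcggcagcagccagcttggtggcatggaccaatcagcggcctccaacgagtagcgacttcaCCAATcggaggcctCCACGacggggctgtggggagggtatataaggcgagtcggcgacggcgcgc
Hsp90b1, chr10:86705445-86705694, minus strand: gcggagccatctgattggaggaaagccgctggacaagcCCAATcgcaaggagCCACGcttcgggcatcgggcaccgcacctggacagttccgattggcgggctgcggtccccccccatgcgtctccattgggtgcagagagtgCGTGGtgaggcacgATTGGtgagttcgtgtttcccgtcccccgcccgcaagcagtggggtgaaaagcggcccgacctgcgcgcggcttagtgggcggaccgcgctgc
The *Hsp90b1* promoter carries its elements in opposite orientations, and CCAAT or ATTGG recurs outside the capitals in each of the 3 sequences.

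Across all 39 genes the KO values were close to the WT values. The median log2 ratio was -0.04, against -0.05 over all 11367 genes, with 17 genes above 0 and 22 below. In 29 of 39 genes (74.4%) the ratio lay within 0.25 of 0, against 64.8% of all genes. None of the 39 had a log2 ratio over 0.5 (0 genes, where 2.48% of all genes passed this limit) and 2 had one under -0.5, *Edem3* and *Hsp90b1* (7.9% of all genes passed). Of the 39 genes 36 had a mean of at least 100, and over the 7063 genes at that level 1.87% were over 0.5, 3.99% under -0.5 and 72.7% within 0.25 of 0. Summed over the genes, WT held 69449 and KO 68182, which is -0.03 on the log2 scale. The plot of both values per gene shows pairs of points that nearly touch for most genes over a wide range of levels.

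**Figure D1:**
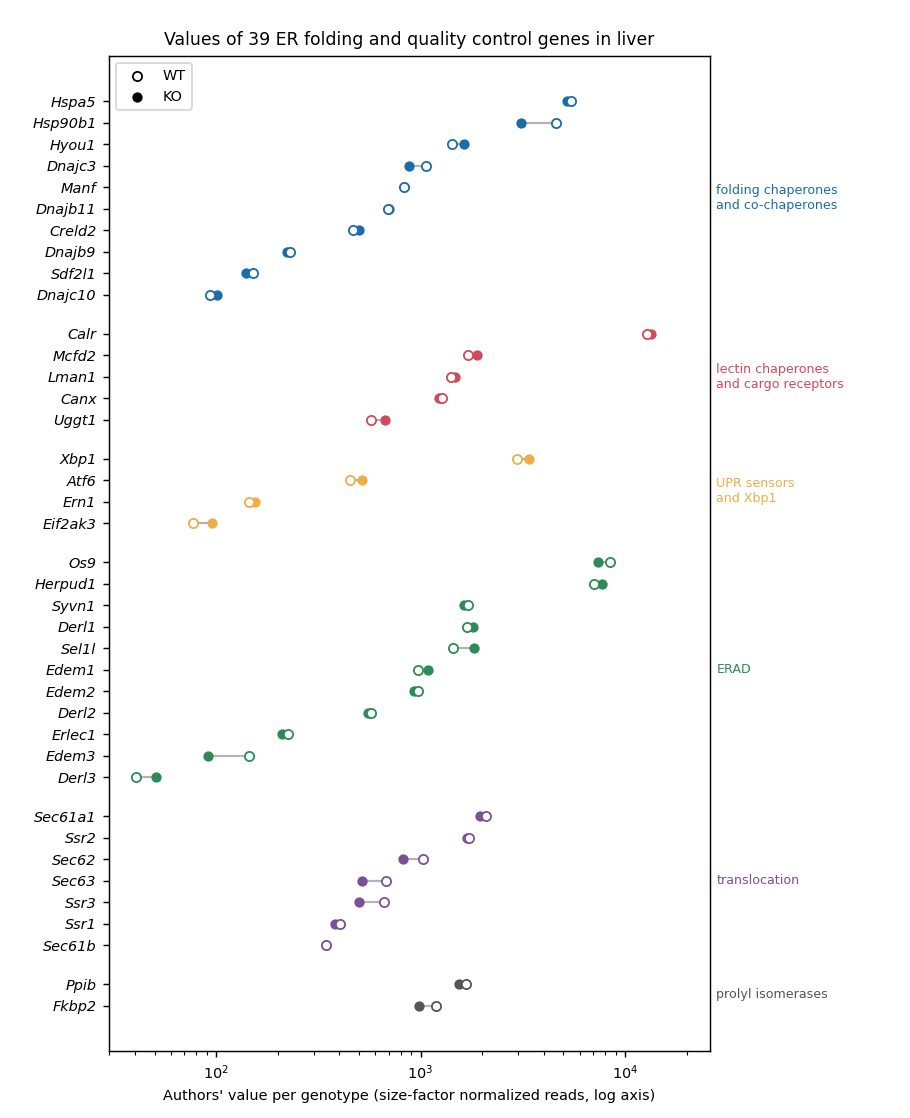
Values of the 39 genes in WT (open circles) and KO (filled circles), by role, as the authors' single value per genotype in reads divided by a size factor (log axis, no error available). The gaps are widest for *Edem3* (144 and 90.8) and *Hsp90b1* (4609 and 3112), both lower in KO.

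Among the 10 folding chaperones and co-chaperones the median log2 ratio was -0.03, with 4 genes above 0 and 6 below. BiP, the HSP70 chaperone of the ER lumen and the usual index of the UPR, was nearly the same in both genotypes, with *Hspa5* at 5430 in WT and 5199 in KO (-0.06). *Hsp90b1*, which encodes the HSP90 chaperone GRP94 and whose promoter is shown above with 2 elements, was the exception, at 4609 in WT and 3112 in KO (-0.57), 32.5% lower. The gene (22027) spans chr10:86690209-86705509 on the minus strand of GRCm38. *Dnajc3*, encoding the BiP co-chaperone P58IPK, had 1063 in WT and 877 in KO (-0.28). *Sdf2l1*, a partner of the DNAJB11 complex, followed at 152 and 141 (-0.11).
At the other end stood *Hyou1*, the HSP110-type chaperone GRP170 that exchanges nucleotide on BiP, at 1420 in WT and 1635 in KO (0.20). *Dnajc10*, the co-chaperone and disulfide reductase ERdj5, had 93.3 and 100.5 (0.11). *Creld2*, an ER stress-inducible secreted protein, had 470 and 500 (0.09). The remaining 3 genes, *Dnajb11*, *Dnajb9* and *Manf*, lay between -0.05 and 0.02, *Manf* at 830 in WT and 829 in KO. *Dnajb9*, an inhibitory co-chaperone of IRE1, *Sdf2l1*, *Creld2* and *Manf* are among the genes strongly induced when the UPR is active. The log2 ratios of these 4 lay between -0.11 and 0.09, and *Dnajb9* was at 0.35 after the subtraction for GC content described below. They are only a part of such genes. *Herpud1*, which the UPR also induces, was at 0.12, and the 39 genes ran from -0.67 in *Edem3* to 0.34 in *Sel1l*. Whether the UPR was active was not tested.

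The 5 lectin chaperones and cargo receptors had a median of 0.07, with 4 genes above 0 and 1 below. *Calr*, the calcium-binding lectin chaperone calreticulin, had the highest level per kilobase of the 39 genes, 6601 in WT and 6917 in KO, above 98.0% of all genes, and its values were 12826 and 13440 (0.07). *Uggt1*, which encodes the glucosyltransferase that marks misfolded glycoproteins for another round with the lectins, was highest in ratio at 571 in WT and 673 in KO (0.24). *Mcfd2* and *Lman1*, which together form the receptor that carries a pair of clotting factors out of the ER, had 1704 and 1891 (0.15) and 1417 and 1467 (0.05). *Canx*, the membrane-bound lectin calnexin, was the only one below 0, at 1268 in WT and 1231 in KO (-0.04).

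The UPR sensors and *Xbp1* were the group with the highest median, 0.20, and all 4 were above 0 by 0.11 to 0.31. Over all genes, 4803 of 11367 were above 0. *Eif2ak3*, the kinase PERK that slows translation, had 77.1 in WT and 95.5 in KO (0.31). *Atf6*, the sensor cut in the Golgi to release a transcription factor, had 452 and 520 (0.20). *Xbp1*, whose mRNA is spliced by IRE1 into the form that encodes the active factor, had 2975 in WT and 3406 in KO (0.19). The table gives *Xbp1* as a gene, so the spliced form could not be read from it. *Ern1*, encoding IRE1, was the lowest at 144 and 155 (0.11). Over all 11367 genes 1440 (12.7%) had a log2 ratio over 0.25, and of these 4 only *Eif2ak3* did.

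The 11 ERAD genes spread most, from -0.67 to 0.34, around a median of -0.05, with 5 above 0 and 6 below. *Sel1l*, the scaffold of the HRD1 ubiquitin ligase, had the highest ratio of all 39 genes, at 1438 in WT and 1817 in KO (0.34), 26.4% higher. *Derl3*, a derlin of secretory cells, followed at 40.4 and 51.0 (0.33), and *Edem1*, a mannosidase-like protein that trims glycans of misfolded proteins, at 976 and 1090 (0.16). The ligase itself, *Syvn1* (HRD1), had 1711 in WT and 1636 in KO (-0.06), a lower KO value beside the higher one of its scaffold. *Edem3*, a mannosidase of the same family as *Edem1*, had the lowest ratio of the 39, at 144 in WT and 90.8 in KO (-0.67), 36.9% lower. In GRCm38, *Sel1l* (gene 20338) lies on the minus strand at chr12:91806043-91849157 and *Edem3* (gene 66967) on the plus strand at chr1:151755371-151822051.
*Os9* and *Erlec1* encode the lectins that read the trimmed glycans for the HRD1 complex. *Os9* had 8409 in WT and 7349 in KO (-0.19) and *Erlec1* 225 and 210 (-0.10). *Herpud1*, an adaptor of the HRD1 complex that the UPR induces, had 7068 and 7706 (0.12). The last 3 genes, *Derl1*, *Derl2* and *Edem2*, lay between -0.06 and 0.10. The genes nearest to the limits without passing them were *Sel1l* at 0.34 on the high side and *Ssr3* at -0.40 on the low side, and the one just past the lower limit was *Hsp90b1* at -0.57.

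All 7 translocation genes were below 0, with a median of -0.08, against 6564 of 11367 genes below 0 overall. *Ssr3*, a subunit of the translocon-associated protein complex, had 665 in WT and 502 in KO (-0.40). *Sec63* and *Sec62*, which open the SEC61 channel for post-translational import, had 674 and 515 (-0.39) and 1025 and 824 (-0.32). The channel subunits *Sec61a1*, at 2081 in WT and 1963 in KO (-0.08), and *Sec61b*, at 346 and 345 (-0.004), were closer to 0, as were *Ssr1* at 403 and 380 (-0.08) and *Ssr2* at 1728 and 1686 (-0.04). The first 3 of these genes were under -0.25, as were 22.5% of all genes, and the other 4 were not. Relative to the median of all genes, 5 of the 7 were below 0 and 2, *Ssr2* and *Sec61b*, above.
Both prolyl isomerases were below 0. *Fkbp2*, an FK506-binding isomerase of the lumen, had 1187 in WT and 978 in KO (-0.28). *Ppib*, the cyclophilin B that the study used as reference gene for its RT-qPCR, had 1664 and 1543 (-0.11).

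**Figure D2:**
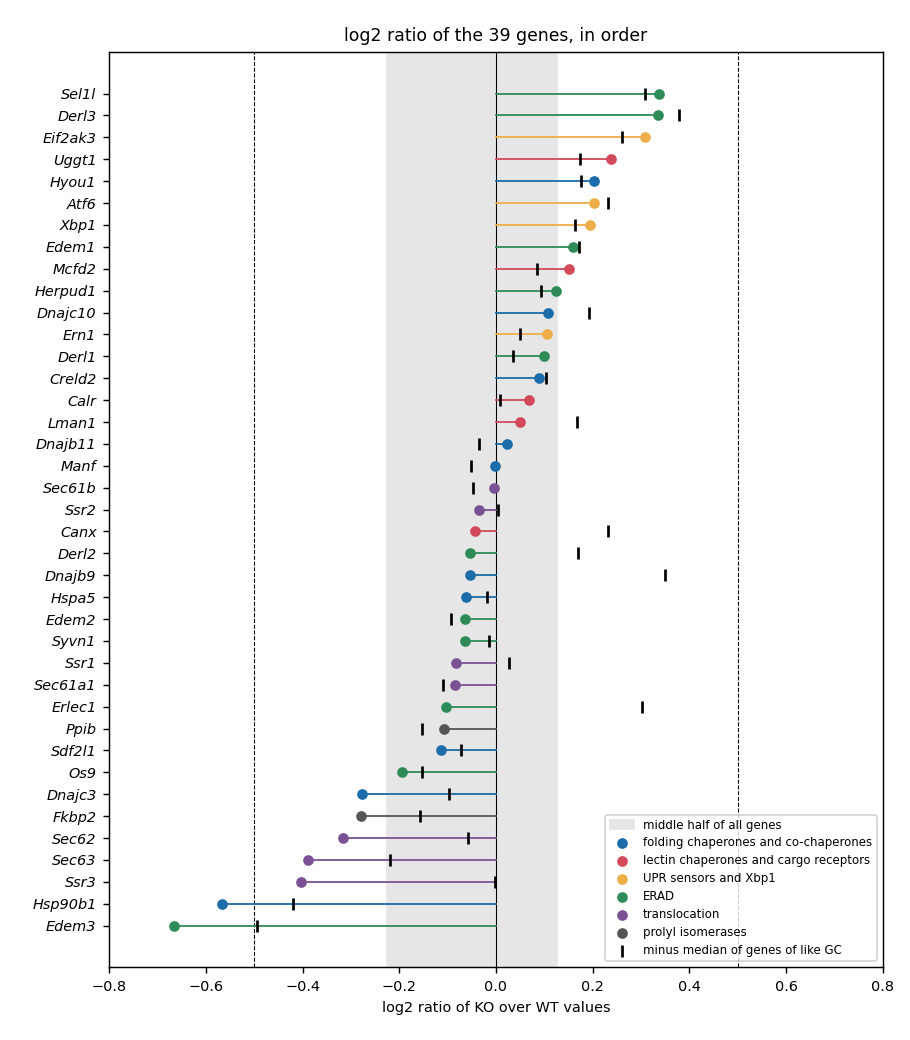
log2 ratio of KO over WT for each of the 39 genes, in order and coloured by role, with dashed lines at 0.5 and -0.5 and the range between the quartiles of all 11367 genes (-0.23 to 0.13) in grey. Black ticks give the ratio after subtraction of the median of genes of like GC content, by which *Edem3* moves from -0.67 to -0.49 and *Dnajb9* from -0.05 to 0.35.

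The genes with the lowest ratios shared a base composition. Transcripts of the 39 genes held 40.4% to 62.6% G or C, taken from the longest coding transcript of each gene. A ratio under -0.25 was found in 7 of the 39 genes and 22.5% of all genes. Of these 7 genes, 6 had a GC content under 45% (*Edem3*, *Hsp90b1*, *Ssr3*, *Sec63*, *Sec62* and *Dnajc3*) and 1, *Fkbp2*, had 62.6%. The 3 genes over 0.25, a limit passed by 12.7% of all genes, had 47.7% or more. The 13 genes with a GC content under 45% had a median ratio of -0.10 with 11 below 0, and the other 26 a median of 0.08 with 11 below 0. Over all genes, the 2367 with a GC content under 45% had a median of -0.27 and the 8701 others -0.004. Under -0.5 lay 26.7% of all genes with a GC content under 45%, the range in which both *Edem3* (43.5%) and *Hsp90b1* (43.8%) fall. Among genes of that range with a mean of at least 100, as both have, 200 of 1071 lay under -0.5. Spearman's rho between GC content and log2 ratio was 0.25 over the 39 genes and 0.22 over 11068 genes, which share the same 6 libraries and are not independent.

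**Figure D3:**
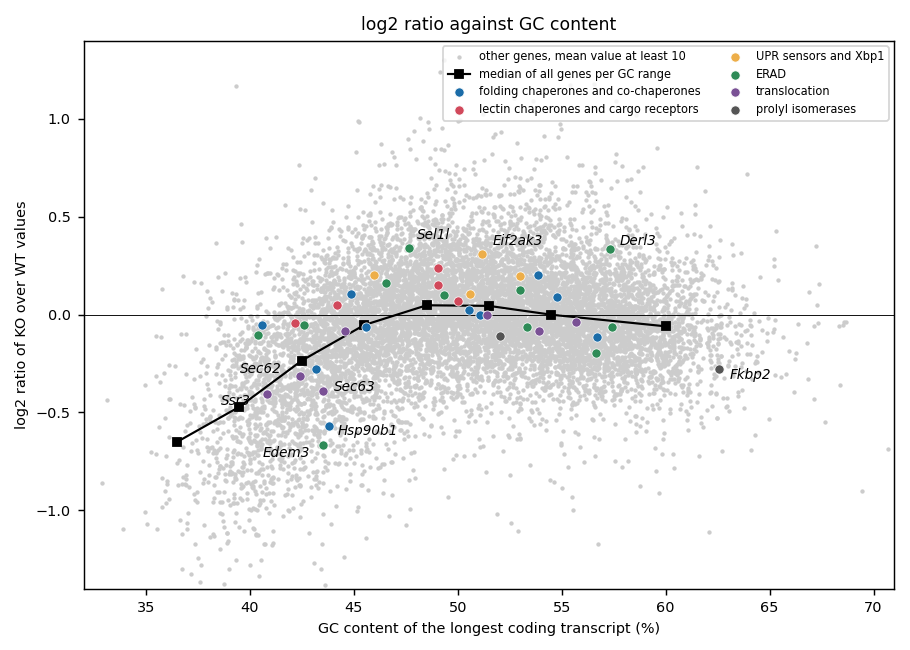
log2 ratio of KO over WT against the GC content of the longest coding transcript, for the 39 genes by role (colours) and the other genes (grey), with the median of all genes in ranges of GC content (black squares, the outermost at an arbitrary position). The median is -0.65 under 38% GC and 0.05 from 47% to 50%, the labelled low genes other than *Fkbp2* sit on the sloping part, and 12 of 11068 genes fall outside the axes.

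With the median of all genes within 1 percentage point of GC content subtracted, 0 of the 39 genes lay beyond 0.5 in either direction, and 13 moved by at least 0.1. *Ssr3* and *Sec62* were then at -0.002 and -0.06, while *Edem3* at -0.49 and *Hsp90b1* at -0.42 were the only 2 under -0.25. Among 945 genes within that distance of *Hsp90b1*, 12.9% had a ratio under -0.5, and among 911 near *Edem3*, 14.8%. The subtraction placed 5 genes over 0.25, namely *Derl3* (0.38), *Dnajb9* (0.35), *Sel1l* (0.31), *Erlec1* (0.30) and *Eif2ak3* (0.26). The 3 UPR sensors and *Xbp1* stayed above 0, at 0.05 to 0.26, and the 5 lectin chaperones and cargo receptors were all above 0, at 0.01 to 0.23. Of the translocation genes 5 remained below 0, and of the ERAD genes 7 of 11 were above 0. The shares of all genes past 0.25, 0.5 or 0 after the same subtraction are not given. These counts therefore have no background and are descriptions only. This subtraction was chosen after the data were seen.

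For genes with few reads the whole reads of each library could be worked out, since the mean of a gene's values is a sum of whole reads each divided by its library's size factor. Of 8081 genes with a sum of at most 400 normalized reads over the 6 libraries, 8057 had a single solution. The libraries carry no pool number. Their genotype was taken from the deposited direction of genes with a single read in all, and they are named A, B and C within a genotype in order of size factor, 1.22, 0.879 and 0.818 in WT and 1.31, 1.04 and 0.886 in KO. In genes with a GC content under 40%, WT library A lay 1.51 above the mean of the 6 libraries on the log2 scale (median) and KO library A 0.41 above. WT libraries B and C lay at -0.09 and -0.39, and KO libraries B and C at -0.63 and -0.61. In such genes WT library A stood farthest from the others. All of the 39 genes had a GC content above 40%. From 40% to 45%, the range of *Edem3* and *Hsp90b1*, WT library A lay 0.97 above the mean and KO library A 0.44 above. There WT libraries B and C lay at -0.09 and -0.34, and KO libraries B and C at -0.41 and -0.46. Whether WT library A lowered the ratios of *Edem3* and *Hsp90b1* was not tested, since their reads per library could not be recovered.

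**Figure D4:**
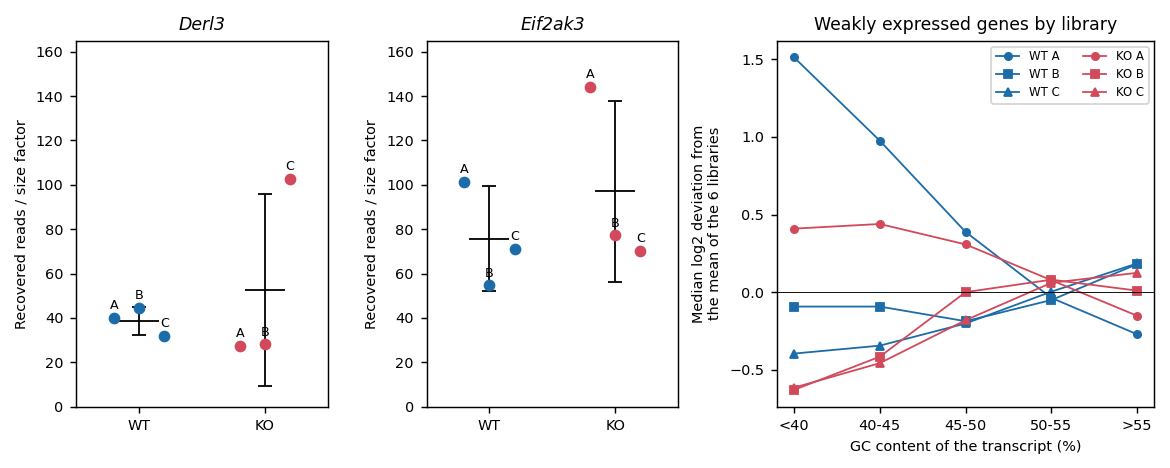
Left and middle, recovered reads divided by size factor in each library (points A to C) for *Derl3* and *Eif2ak3*, with mean and SD of 3 libraries (bars). For *Eif2ak3*, which had 2 solutions, the one with the deposited direction is drawn, so its direction is not a separate result. Right, median log2 deviation of weakly expressed genes from the mean of the 6 libraries, by GC content of the transcript. In WT library A the deviation is 1.51 under 40% and 0.97 from 40% to 45%. For *Derl3* KO library C stands alone at 102.7.

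*Derl3* was the only one of the 39 genes with a single solution. Its reads in WT libraries A, B and C were 49, 39 and 26, which gave 40.0, 44.4 and 31.8 normalized reads. In KO libraries A, B and C they were 36, 29 and 91, or 27.4, 28.0 and 102.7 normalized reads. The higher KO value thus came from 1 library, and the other 2 KO libraries lay below all 3 WT libraries. The means were 38.7 ± 6.38 (SD, n = 3 libraries) in WT and 52.7 ± 43.3 (SD, n = 3 libraries) in KO. The difference did not exceed the spread (two-sided exact permutation test, p = 1, where 0.1 is the smallest p that 3 against 3 allow). Without KO library C the log2 ratio of the means turned from 0.45 to -0.48. In limma the log2 difference was 0.16 with a standard error of 0.53 (adjusted p = 0.999 over 3302 genes, and 0.983 to 0.9999 over the alternatives).
*Eif2ak3* had 2 solutions, of which 1 has 0 reads in KO library A and a lower mean in KO. The other was kept because it has the deposited direction, so its direction is not a separate result. It gave 124, 48 and 58 reads in WT libraries A, B and C and 189, 80 and 62 in KO libraries A, B and C. In normalized reads these were 101.2, 54.6 and 70.9 in WT (75.6 ± 23.7, SD, n = 3 libraries) and 144.0, 77.2 and 70.0 in KO (97.1 ± 40.8, SD, n = 3 libraries). The genotypes overlapped, and library A was the highest of each. *Dnajc10* had 4 solutions and *Edem3* 9, which were not told apart, and the other 35 genes had too many reads.

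Among the 3302 genes tested with limma, 0 passed an adjusted p of 0.05 (0%). An unadjusted p under 0.05 was found in 54, a smaller share than the 0.05 that p-values give where no gene differs. With WT library A, WT library C or KO library A left out, the numbers were 137, 140 and 169. A lack of calls therefore does not show that genes had equal levels. The genes tested included *Derl3* and 19 genes of the same pathways outside the 39, of which none had an unadjusted p under 0.05. For the strongly expressed genes the spread between libraries is unknown.

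Most other genes of the pathways had like values in both genotypes. Of 173 genes in lists of other ER chaperones, UPR regulators, N-glycosylation, ERAD, translocation and ER exit, 170 were in the table and 164 had a mean of at least 10. Their median log2 ratio was -0.02, and 74.4% lay within 0.25 of 0. This compares with 64.8% of all genes and with 72.7% of the 7063 genes with a mean of at least 100, which is close to it. Of the 164, 3 were over 0.5, where 2.48% of all genes passed, and 7 under -0.5, where 7.9% passed. At a mean of at least 100 the shares of all genes were 1.87% and 3.99%. The 3 were *Cnpy4* at 22.2 in WT and 33.3 in KO (0.59), *Dnajb14*, a membrane-bound co-chaperone, at 33.1 and 48.0 (0.54), and *Sec24d*, a cargo adaptor of COPII vesicles, at 946 and 1343 (0.50). All 7 low genes had a GC content of 35.0% to 43.3%, the lowest being *Tmed5*, a p24 cargo receptor, at 662 and 329 (-1.01). Among 18 other UPR regulators the extremes were *Ufl1*, the ligase of UFMylation, at 119 and 70.6 (-0.75), and *Ppp1r15b*, which directs the phosphatase that reverses the action of PERK, at 616 and 817 (0.41). Among 34 other ERAD genes they were *Yod1*, a deubiquitinase, at -0.51, and *Herpud2*, the paralog of *Herpud1*, at 283 and 348 (0.30).
Other translocation genes ranged from *Emc2*, a subunit of the ER membrane insertase, at 98.7 and 59.2 (-0.74), to *Tram2* at 63.7 and 83.4 (0.39). Of these genes 20 of 29 were below 0, against 6564 of 11367 genes overall. N-glycosylation genes were evenly split, 16 above and 16 below 0, from *Magt1* (-0.48) to *Alg2* (0.34), and none of these 32 passed 0.5 in either direction.

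The ratios of the genes with an ERSE were spread around 0. The 8 had a median log2 ratio of -0.05, from -0.57 in *Hsp90b1* to 0.33 in *Derl3*, with 3 above 0 and 5 below, and the 23 genes with a promoter entry and no ERSE had a median of -0.05 as well. Outside the 39 genes, 8 genes with an exact ERSE had a mean of at least 10 and a median of -0.01. These 8 ranged from -0.80 in *Hnrnpa3* to 0.89 in *Acnat2*, with 3 of 8 within 0.25 of 0, and include *Pdia6*, a protein disulfide isomerase of the lumen, at 1208 in WT and 1263 in KO (0.06).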

How the data were processed

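The authors' sequencing service filtered, mapped and counted the reads. The submitters' processing notes name HISAT2, StringTie, Cufflinks, GATK, Bowtie2, RSEM and mm10, with no roles or versions. The authors deposited a signal per genotype and gene, on the scale of reads over DESeq2 size factors. It is not the mean of the 3 libraries of a genotype. For *Derl3* it is 40.4 in WT and 51.0 in KO, against means of recovered normalized reads of 38.7 and 52.7. The mean of the WT and KO signals is that of all 6 libraries. Per library the authors deposited a count of clean reads and percent values for mapping and ribosomal RNA. Their log2 ratio and p-value columns were not used.

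Ratios were recalculated from the signal, which for *Txndc5* gave -4.89, the same log2 ratio as the study prints. Reads per library were recovered by enumerating sums of whole reads at 6 recurring single-read values, with sums up to 600, and this step was tested on simulated data. The resolved genes are weakly expressed, so a few reads carry a large counting error. limma 3.58.1 (R 4.3.3, trend) compared 3302 genes with sums of 60 to 400 on log2(normalized reads + 1), with Benjamini-Hochberg adjustment. Levels per kilobase used the authors' gene lengths. GC content, gene positions and motifs came from GENCODE M21 and the RefSeq promoter table, both GRCm38, the assembly of mm10. The study states separate pools of mice, and p-values measure the spread between them.

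The 39 genes, roles and lists were chosen with earlier results of these data known. Named one by one were genes beyond 0.5, the 3 highest and 3 lowest per role, those nearest the limits, those with recovered reads, and the 2 highest and 2 lowest of other lists, of which the text gives a part.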

Additional observations from a re-analysis of the deposited data

How the results depend on the processing

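With pseudocounts of 1 and 10, with no filter, with a mean of at least 100 (36 genes) and after centring on all genes, 0 of the 39 genes were over 0.5 and 2 under -0.5, and the median ran from -0.05 to 0.01. With the median of genes of like GC content subtracted, 0 were under -0.5 and the median was 0.03, with no share of all genes given for that setting. A limit of 0.25 gave 3 genes above, where 12.7% of all genes passed, and 7 below, where 22.5% passed, and a limit of 1 gave 0 below. limma called 0 genes under every alternative, with 21 to 212 at an unadjusted p under 0.05. The log2 difference of *Derl3* ran from -0.46 to 0.48 with 1 library left out, and it turned to -0.46 without KO library C (adjusted p = 0.9999). No paired analysis was possible because the genotypes share only pool number 2, and the values carry no pool number. The values per genotype have no error, which limits every statement that rests on them alone.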
